A study of Rattus norvegicus with 18 samples.

Results

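The genes described here are 9 interferon response genes of rat liver: the transcription factors Irf7 and Irf1 and the effectors Oas1a, Oasl, Mx1, Mx2, Isg15, Ifit3 and Bst2. They were taken by gene symbol from the array's platform annotation, and each gene was represented by its probe set with the highest mean over the 18 arrays. All 9 were measured, among 14217 genes, and they had 10 of the 31099 probe sets. Liver RNA came from adult male Sprague Dawley rats fed for 8 weeks and fasted overnight. One group received a high fat diet together with a daily 150 mg per kg of pomegranate skin extract (HFD+PE), one the high fat diet alone (HFD) and one chow. The submitters labelled the HFD livers as fatty and the HFD+PE and chow livers as normal. Each group had 6 Affymetrix arrays, called biological replicates in the labels. Values are log2 signals, on which a difference of 1 is a doubling, and they were deposited rounded to 0.1.

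Type I and type III interferons bind receptors at the cell surface and act through Janus kinases and a complex that contains STAT2 and IRF9, which binds interferon-stimulated response elements in the promoters of their target genes. Interferon gamma acts mainly at gamma-activated sites. In liver, hepatocytes as well as Kupffer cells, the resident macrophages, and other non-parenchymal cells can express these targets. Many of the targets restrict viruses, and some, such as IRF7, raise the production or the action of interferon itself.

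To show what these promoters share, sequence was read from RefSeq's windows of 250 bases before to 50 bases after each gene's start (build GRCr8), which held 7 of the 9 members. Isg15 and Mx2 had no window in that table. Stretches of 60 bases with a match are printed below, 5′ to 3′ on the strand of the gene, with the matching letters in capitals. The first 4 lines show the letters GAAA, any 2 bases and GAAA again, a motif like the interferon-stimulated response element, searched on both strands. The last shows TTCNNNGAA, a motif like the gamma-activated site, whose letters read the same on both strands.

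Oas1a, chr12:41330403-41330462, plus strand, positions -63 to -4: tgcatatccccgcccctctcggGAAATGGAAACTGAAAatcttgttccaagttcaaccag
Bst2, chr16:18255061-18255120, minus strand, positions -153 to -94: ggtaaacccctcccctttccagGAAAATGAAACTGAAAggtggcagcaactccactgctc
Ifit3, chr1:241527257-241527316, plus strand, positions -69 to -10: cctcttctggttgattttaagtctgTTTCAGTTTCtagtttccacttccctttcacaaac
Irf7, chr1:205800058-205800117, minus strand, positions -94 to -35: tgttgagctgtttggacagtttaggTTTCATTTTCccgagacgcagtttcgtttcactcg
Irf1, chr10:38417767-38417826, plus strand, positions -168 to -109: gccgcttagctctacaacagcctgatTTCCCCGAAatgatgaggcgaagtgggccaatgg

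The paired GAAA motif was found in 4 of the 7 member promoters and in 3.92% of all 33469 promoters of the same length. Oas1a and Bst2 each held a pair of overlapping matches on the gene's own strand, and Ifit3 and Irf7 each held 1 match on the opposite strand. TTCNNNGAA was found in 3 of the 7 (Irf1, Bst2 and Oas1a) and in 8.87% of all promoters. In Bst2 its letters overlap those of the other motif. The windows of Mx1 and Oasl held neither run of letters. A match describes the letters only.

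The arrays were compared with each other first. Among 153 array pairs, a log2 gap over 2 was seen at 18 to 110 probe sets in 150 pairs, but at 0 in HFD+PE 3 with 4, HFD 1 with 2 and chow 3 with 4. Each of these 3 pairs was entered as the mean of its arrays, so that every group had 5 animals (15 in all), although the labels count 18 replicates. The SD of the log2 difference was 0.26 within the HFD+PE pair, 0.117 within the HFD pair and 0.215 within the chow pair, against 0.26 or more in the remaining pairs, so that the HFD+PE pair stands apart by its lack of large gaps and not by its SD. Per-animal values below follow the label numbers, with the averaged pair in its place (HFD+PE 1, 2, 3-4, 5, 6; HFD 1-2, 3, 4, 5, 6; chow 1, 2, 3-4, 5, 6). The hybridization control probe sets averaged 12.78 to 13.22 on 5 arrays (2 HFD+PE, 0 HFD, 3 chow), called the higher set here, and 11.83 to 12.22 on the other 13, the lower set. Hepatocyte markers were present throughout: albumin (Alb) was at 14.9 to 15 in every animal, and the hepatocyte transcription factor gene Hnf4a at 12.25 to 12.9.

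All 9 members averaged lower in HFD+PE livers than in chow livers, by 0.41 to 1.15 log2 units, and all 9 averaged lower in HFD livers than in chow livers, by 0.04 to 0.67. Between HFD+PE and HFD livers, 7 of 9 were lower with the extract, by 0.36 to 0.55, while Irf1 and Ifit3 differed by 0.04 in the other direction. For 7 of 9 genes the HFD+PE mean lay below the HFD mean and the HFD mean below the chow mean, an order found in 17.3% of all 14217 genes. No member passed an adjusted p of 0.05 in any comparison, and neither did any other gene (0% of 14217 in each comparison and in the test for any difference between the 3 groups).

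**Figure D1:**
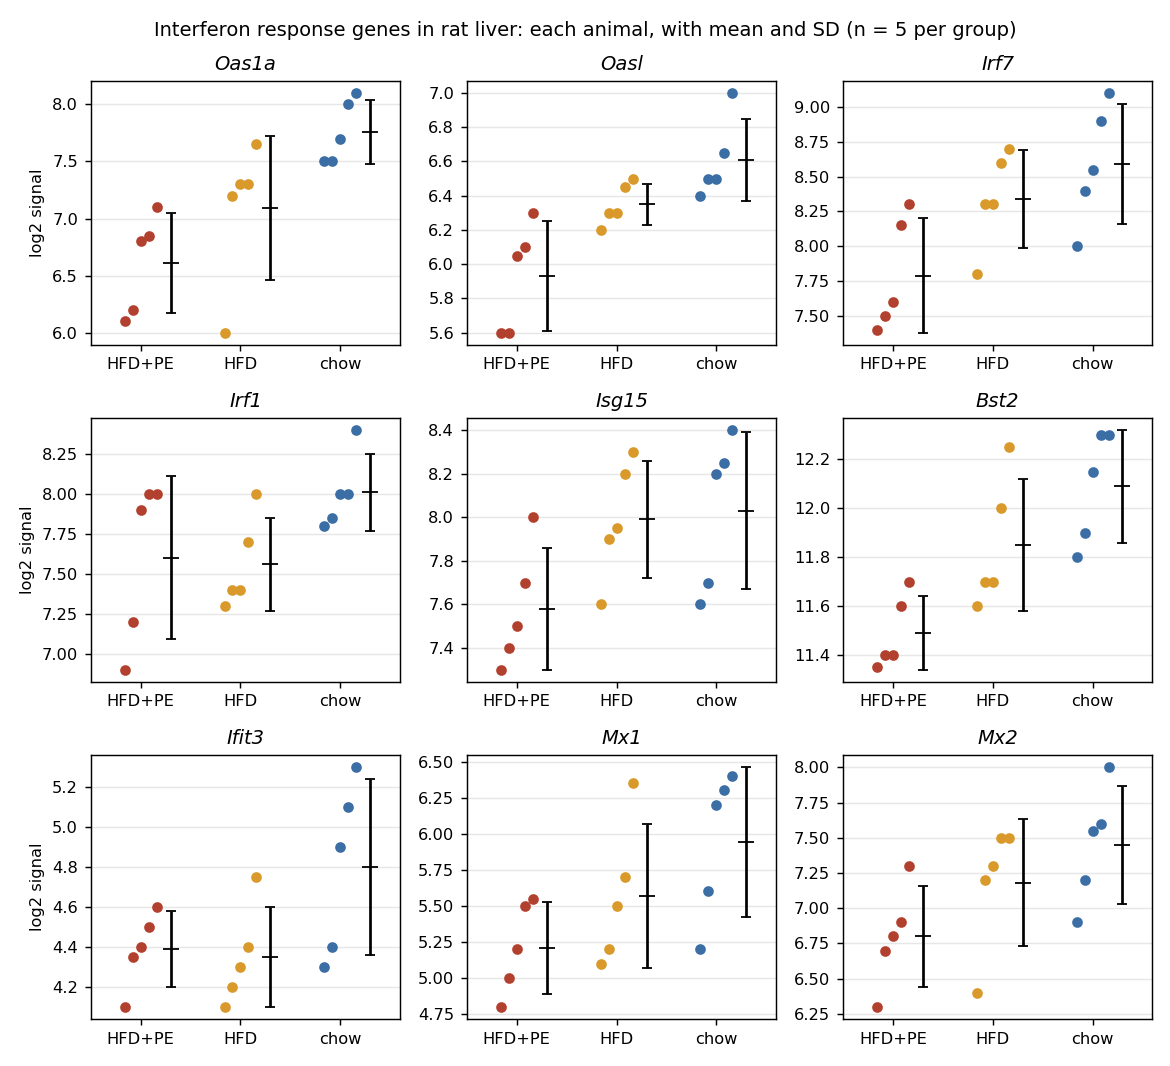
Log2 signal of the 9 interferon response genes in each of the 15 animals, by group (HFD+PE, HFD, chow from left to right), with the mean and SD of each group. In Oas1a, Oasl and Bst2 every HFD+PE animal lies below every chow animal. HFD 4 stands low in Oas1a and Mx2.

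IRF7 is the factor that amplifies type I interferon production, and its gene is itself an interferon target. Irf7 stood at 7.5, 7.6, 8.15, 7.4 and 8.3 in HFD+PE livers, at 8.7, 8.6, 7.8, 8.3 and 8.3 in HFD livers and at 8.0, 9.1, 8.55, 8.9 and 8.4 in chow livers. The HFD+PE and chow groups overlapped through HFD+PE 3-4 and 6, which lay above chow 1. The means were 7.79 ± 0.41, 8.34 ± 0.35 and 8.59 ± 0.43 in HFD+PE, HFD and chow livers (SD, n = 5 animals each). By limma, Irf7 was lower by 0.55 in HFD+PE than in HFD livers (log2 change -0.55, SE 0.221, adjusted p = 0.993). It was lower by 0.80 than in chow livers (log2 change -0.80, adjusted p = 0.177). HFD and chow livers differed by -0.25 (adjusted p = 0.837), by -0.12 when HFD 4 or chow 2 was left out and by -0.40 without chow 1.

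IRF1 is a transcription factor induced mainly by interferon gamma that drives antigen presentation genes. Irf1 was at 6.9, 7.2, 8.0, 8.0 and 7.9 in HFD+PE livers, 8.0, 7.4, 7.4, 7.7 and 7.3 in HFD livers, and 7.8, 8.4, 7.85, 8.0 and 8.0 in chow livers. The HFD+PE group was the most spread of the 3, with HFD+PE 1 and 2 below every HFD and chow animal and the other 3 HFD+PE animals inside the chow range. Means were 7.60 ± 0.51 in HFD+PE, 7.56 ± 0.29 in HFD and 8.01 ± 0.24 in chow livers. HFD livers differed from chow livers by -0.45 (SE 0.205, adjusted p = 0.633) and HFD+PE livers from HFD livers by 0.04 (adjusted p = 0.993). Against chow, the HFD+PE difference was -0.41 (adjusted p = 0.483). It was -0.24 without HFD+PE 1 and -0.17 among arrays of the lower hybridization set.

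The oligoadenylate synthetases sense double-stranded RNA, and OAS1 makes oligoadenylates that switch on RNase L, an enzyme that degrades RNA. Of the 9 members, Oas1a had the largest difference between HFD+PE and chow livers. Its levels were 6.8, 6.2, 6.85, 6.1 and 7.1 in HFD+PE livers, 7.65, 7.3, 6.0, 7.3 and 7.2 in HFD livers and 7.5, 7.7, 8.0, 8.1 and 7.5 in chow livers. Every HFD+PE animal was below every chow animal, and in the HFD group only HFD 4 was below the lowest HFD+PE animal. Means were 6.61 ± 0.44, 7.09 ± 0.63 and 7.76 ± 0.28 in HFD+PE, HFD and chow livers. The HFD+PE level was 0.45 times that of chow (log2 change -1.15, SE 0.26, adjusted p = 0.11). HFD livers differed from chow livers by -0.67 (adjusted p = 0.572), or by -0.40 without HFD 4, and HFD+PE livers from HFD livers by -0.48 (adjusted p = 0.993), or by -0.75 without HFD 4.

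Oasl encodes an OAS relative with ubiquitin-like domains. It was at 6.1, 5.6, 6.05, 5.6 and 6.3 in HFD+PE livers, 6.45, 6.5, 6.3, 6.3 and 6.2 in HFD livers and 6.4, 7.0, 6.65, 6.5 and 6.5 in chow livers. The HFD group was the tightest, and only HFD+PE 6 reached into its range. Means were 5.93 ± 0.32, 6.35 ± 0.12 and 6.61 ± 0.24 in HFD+PE, HFD and chow livers. Oasl had the smallest unadjusted p of the members both against HFD (log2 change -0.42, SE 0.139, adjusted p = 0.993) and against chow (log2 change -0.68, or 0.62 times the chow level, adjusted p = 0.104). HFD and chow livers differed by -0.26 (adjusted p = 0.684), by -0.16 without chow 2 and by -0.14 with the hybridization set as a covariate.

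The Mx proteins are dynamin-like GTPases that block viruses inside the cell. Mx1 was at 4.8, 5.2, 5.55, 5.0 and 5.5 in HFD+PE livers, 6.35, 5.5, 5.1, 5.7 and 5.2 in HFD livers and 5.2, 6.3, 6.2, 6.4 and 5.6 in chow livers. The groups overlapped, since chow 1 was as low as HFD+PE 2, and HFD 1-2 was second only to chow 5. Means were 5.21 ± 0.32, 5.57 ± 0.50 and 5.94 ± 0.52 in HFD+PE, HFD and chow livers. HFD+PE livers differed from chow livers by -0.73 (SE 0.25, adjusted p = 0.265). They differed from HFD livers by -0.36 (adjusted p = 0.993), which became -0.17 without HFD 1-2 and also on the lower hybridization set. HFD and chow livers differed by -0.37 (adjusted p = 0.766), by -0.57 without HFD 1-2, by -0.56 without chow 1 and by -0.56 on the lower hybridization set.

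Mx2 was at 6.7, 6.3, 6.9, 6.8 and 7.3 in HFD+PE livers, 7.5, 7.2, 6.4, 7.5 and 7.3 in HFD livers and 6.9, 7.6, 7.55, 8.0 and 7.2 in chow livers. In the HFD group 4 animals were at or above 7.2, and HFD 4 stood apart below them. Means were 6.80 ± 0.36, 7.18 ± 0.45 and 7.45 ± 0.42 in HFD+PE, HFD and chow livers. The HFD+PE livers differed from chow livers by -0.65 (SE 0.229, adjusted p = 0.278) and from HFD livers by -0.38 (adjusted p = 0.993), or by -0.58 without HFD 4. The HFD difference from chow was -0.27 (adjusted p = 0.829), -0.08 without HFD 4, -0.13 without chow 5, -0.41 without chow 1 and -0.42 on the lower hybridization set. Mx2 alone had a second, dim probe set (3.0 to 3.5, apart from HFD+PE 5 at 4.6). Averaging both probe sets gave -0.07 between HFD+PE and HFD livers, -0.09 between HFD and chow livers and -0.16 between HFD+PE and chow livers.

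Isg15 encodes a ubiquitin-like protein that is attached to other proteins and is also secreted. Its levels were 7.3, 7.4, 7.5, 7.7 and 8.0 in HFD+PE livers, 7.95, 8.3, 7.9, 8.2 and 7.6 in HFD livers and 7.6, 8.2, 8.25, 8.4 and 7.7 in chow livers. HFD and chow livers covered nearly the same range, and 3 HFD+PE animals lay below both. Means were 7.58 ± 0.28, 7.99 ± 0.27 and 8.03 ± 0.36 in HFD+PE, HFD and chow livers. HFD+PE livers differed from HFD livers by -0.41 (SE 0.173, adjusted p = 0.993) and from chow livers by -0.45 (adjusted p = 0.326). HFD and chow livers differed by -0.04 (adjusted p = 0.981).

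Ifit3 belongs to a family of interferon-induced proteins with tetratricopeptide repeats that bind viral RNA in complexes. It was at 4.1, 4.4, 4.35, 4.6 and 4.5 in HFD+PE livers, 4.75, 4.1, 4.3, 4.2 and 4.4 in HFD livers and 4.4, 5.1, 4.9, 5.3 and 4.3 in chow livers. The probe set was dim, and the chow group was split between chow 2, 3-4 and 5, which were above every other animal, and chow 1 and 6, which lay within the other groups. Means were 4.39 ± 0.19, 4.35 ± 0.25 and 4.80 ± 0.44 in HFD+PE, HFD and chow livers. Both high fat groups averaged below chow, with a difference of -0.41 for HFD+PE livers (SE 0.175, adjusted p = 0.397) and of -0.45 for HFD livers (adjusted p = 0.572). HFD+PE and HFD livers differed by 0.04 (adjusted p = 0.993).

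Bst2 encodes tetherin, which holds budding viruses at the cell surface. It was at 11.4, 11.6, 11.35, 11.4 and 11.7 in HFD+PE livers, 12.25, 12.0, 11.7, 11.6 and 11.7 in HFD livers and 11.8, 12.3, 12.15, 12.3 and 11.9 in chow livers. Its HFD+PE animals stayed within 0.35 of each other, and all were below the lowest chow animal. Means were 11.49 ± 0.15, 11.85 ± 0.27 and 12.09 ± 0.23 in HFD+PE, HFD and chow livers. HFD+PE livers were at 0.66 times the chow level (log2 change -0.60, SE 0.131, adjusted p = 0.108) and differed from HFD livers by -0.36 (adjusted p = 0.993). HFD and chow livers differed by -0.24 (adjusted p = 0.69).

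**Figure D2:**
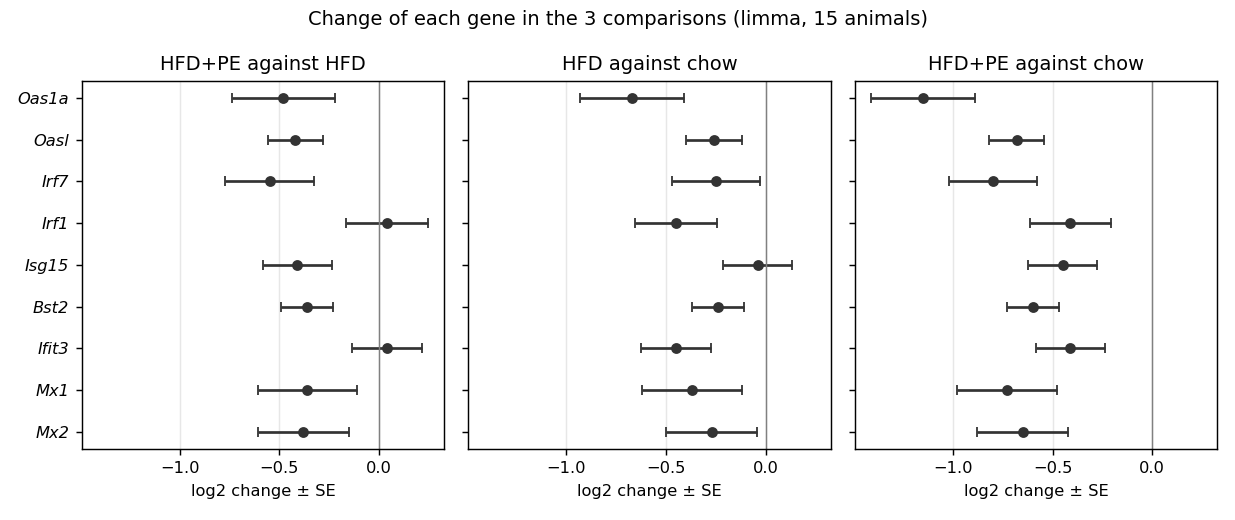
Log2 change of each member with its standard error from limma in the 3 comparisons, HFD+PE against HFD, HFD against chow and HFD+PE against chow. All 9 changes lie below 0 in both comparisons with chow, and 7 of 9 in HFD+PE against HFD, where Irf1 and Ifit3 lie at 0.04.

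Set against all genes, the members' share of low values was as follows. The members were chosen with earlier results of these data known, so these shares and those of the next paragraph are descriptions and not a test. Between HFD+PE and HFD livers, 7 of 9 members were lower, against 47.6% of all genes, and 4 (Oasl, Bst2, Irf7, Isg15) were lower at an unadjusted p under 0.05, against 1.06%. Between HFD and chow livers, 9 of 9 were lower, against 47.5%, and 3 (Oas1a, Ifit3, Irf1) at an unadjusted p under 0.05, against 3.57%. Between HFD+PE and chow livers, 9 of 9 were lower, against 46.4%, and 8 (all but Irf1) at an unadjusted p under 0.05, against 5.14%. The members' median change was -0.38, -0.27 and -0.65 in these 3 comparisons, where the median over all genes was 0, 0 and 0.01. These comparisons share animals and are not independent.

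Every HFD+PE animal was below every chow animal in 3 of 9 members (Oas1a, Oasl and Bst2), against 0.746% of all genes. In the test for any difference between the 3 groups, 8 of 9 had an unadjusted p under 0.05, against 8.14% of all genes, with the smallest for Oasl (adjusted p = 0.23 by limma's F test). The calls for these 3 genes against chow depended on how the arrays were counted. With all 18 arrays as separate animals, the adjusted p was 0.0276 for Oas1a, 0.0148 for Oasl and 0.0276 for Bst2. With the animal as a random block it was 0.0464, 0.0397 and 0.0715. With HFD+PE 3 and 4 alone kept as separate animals, an alternative chosen after seeing the data, it was 0.0741, 0.0566 and 0.0616.

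The unadjusted counts also moved with single animals. The 4 members lower in HFD+PE than in HFD livers became 2 without HFD+PE 1, HFD+PE 2 or HFD 3 and 6 without HFD+PE 6 or HFD 4. The 3 members lower in HFD than in chow livers became 0 without chow 5 and 1 without chow 2, HFD 3 or HFD 4, but 5 without HFD 1-2 and 6 without chow 1. The 8 members lower in HFD+PE than in chow livers varied between 6 and 9.

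Within each set of hybridization controls, all 9 members averaged lower in HFD+PE than in chow livers. Single arrays overlapped in some members, though not in Oas1a, Oasl or Bst2. In the higher set, Irf7 was 8.1 on HFD+PE 3 and 8.0 on chow 1. In the lower set, Isg15 was 8.0 on HFD+PE 6 and 7.7 on chow 6. Whether the control set bears on the differences was not tested. The members' median change was -0.66 on the lower set and -0.65 on the higher set, which held 2 HFD+PE and 3 chow arrays. Between HFD+PE and HFD livers it was -0.31 on the lower set, and between HFD and chow livers -0.41. The higher set held no HFD array. The sets are not independent, since HFD+PE 3 and chow 3 lay in the higher set and HFD+PE 4 and chow 4, counted as the same animals, in the lower.

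The members' mean was then followed animal by animal, as the difference from the chow mean. It was -0.85, -0.86, -0.51, -0.74 and -0.30 in HFD+PE livers, 0.04, -0.26, -0.71, -0.28 and -0.45 in HFD livers, and -0.41, 0.27, 0.09, 0.29 and -0.24 in chow livers. All 9 members were below their chow mean in each of the 5 HFD+PE animals, in HFD 4 and 6 and in chow 1 and 6. The groups overlapped: chow 1, HFD 4 and HFD 6 lay inside the range of the HFD+PE animals. Inside that of the chow animals lay HFD+PE 6 and HFD 1-2, 3 and 5.

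**Figure D3:**
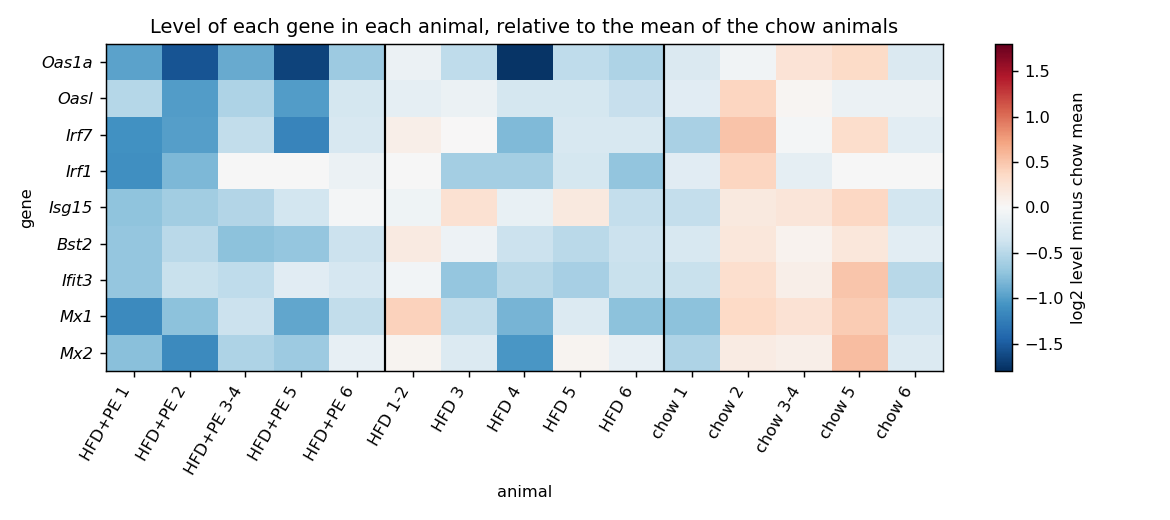
Each member's level in each of the 15 animals, as the log2 difference from the chow mean of that gene, with groups from left to right HFD+PE, HFD and chow. The 5 HFD+PE animals are below 0 in all 9 genes, as are HFD 4 and 6 and chow 1 and 6.

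Whether the members varied together between animals of the same group was asked after subtracting each group's mean, over 15 animals. All 36 pairs of members correlated positively, with Pearson's r between 0.14 and 0.85 and a median of 0.54, whereas the median r of a member with all genes lay between -0.02 and 0.04. The closest pair was Oas1a and Mx2 (r = 0.85, permutation p = 0.00061; Spearman's rho = 0.80, permutation p = 0.00136). Without HFD 4 and HFD+PE 5, the animals farthest from the median of Oas1a, r was 0.87. Irf7 and Mx1 came next (r = 0.84, permutation p = 0.00059; rho = 0.86, permutation p = 0.00013), with r = 0.82 without HFD+PE 1 and 5. Irf7 and Mx2 followed (r = 0.79, permutation p = 0.00183; rho = 0.84, permutation p = 0.00056). The least related pair was Oasl and Ifit3 (r = 0.14, permutation p = 0.663; rho = 0.09, permutation p = 0.764), and r was -0.03 without chow 2 and HFD+PE 2.

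None of the 36 pairs passed when limma p-values were adjusted over the 14216 other genes, the closest being Irf7 with Mx1 (adjusted p = 0.0619 and 0.0877, with either gene as the predictor) and Oas1a with Mx2 (0.107 and 0.0679). At an unadjusted p under 0.05, the other members correlated positively with Irf7 in 8 of 8 cases (against 5.29% of all genes), Mx1 in 7 (5.73%), Ifit3 in 6 (3.98%), Isg15 in 5 (4.15%), Bst2 in 5 (3.02%), Mx2 in 5 (8.22%), Oas1a in 4 (5.68%), Irf1 in 3 (6.39%) and Oasl in 2 (3.23%). Irf7 and Mx1 had the highest median r with the other 8 members, 0.70 and 0.69, and Oasl the lowest, 0.45.

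**Figure D4:**
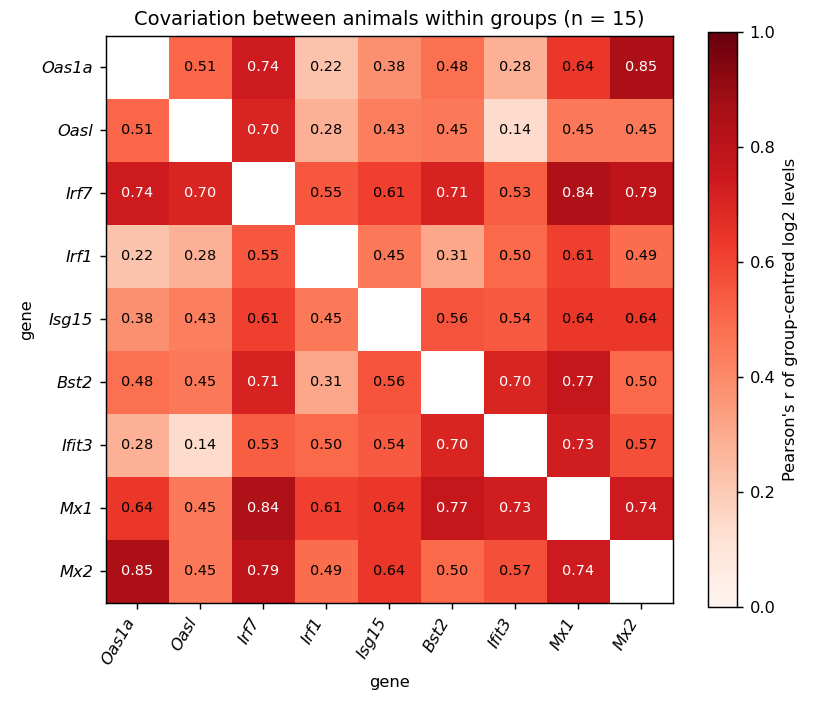
Pearson's r between each pair of the 9 members over 15 animals, after subtraction of the group means. All 36 values are positive, from 0.14 (Oasl and Ifit3) to 0.85 (Oas1a and Mx2).

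A few genes outside the list did pass the adjusted threshold with single members. With Irf7, 7 genes correlated positively (0.0492% of all genes), among them Ddx60, an RNA helicase (r = 0.91, adjusted p = 0.0119), Ly6e (r = 0.90, adjusted p = 0.0123), Trim5 (r = 0.90, adjusted p = 0.0259) and the Fc receptor gene Fcgr3a (r = 0.90, adjusted p = 0.0123). With Mx2, 3 genes did (0.0211%): Irf9, the DNA-binding subunit of the interferon-activated STAT complex (r = 0.93, adjusted p = 0.0372), Ddx60 (r = 0.90, adjusted p = 0.0217) and Akr1c3, an aldo-keto reductase (r = 0.90, adjusted p = 0.0217), while Ret went the other way (r = -0.92, adjusted p = 0.0372). With Ifit3, Slc39a10, a zinc transporter, did (r = 0.92, adjusted p = 0.0329; 0.00703%). With Oas1a, Oasl, Irf1, Isg15, Bst2 and Mx1, no gene did (0% each).

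The 10 genes most like the members' mean, by Pearson's r of group-centred values over 15 animals among 14208 genes, were Dpysl2 (0.93), Slc28a2 (0.91), Prr13 (0.90), Ddx60 (0.89), Ly6e (0.88), Irf9 (0.88), Vps13b (0.88), LOC100910973 (0.87), Herc6 (0.87) and Leng1 (0.86). The median r of all those genes was 0.02. The differences of these genes between groups varied. Slc28a2, a nucleoside transporter, differed by -0.90 between HFD+PE and chow livers and Ly6e by -0.75, whereas Ddx60 differed by -0.17 and Vps13b and Leng1 by 0.12.

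The wider pathway was described from lists of genes outside the members. For the counts of these lists and of the cell markers, the shares of all genes are the ones given above. In HFD+PE against HFD, HFD against chow and HFD+PE against chow, 47.6%, 47.5% and 46.4% of all genes were lower. At an unadjusted p under 0.05 by limma, 1.06%, 3.57% and 5.14% were. Of 38 other interferon-stimulated antiviral genes measured, 29, 30 and 33 were lower in HFD+PE against HFD, HFD against chow and HFD+PE against chow, with median changes of -0.13, -0.16 and -0.28. At an unadjusted p under 0.05, 2, 3 and 17 of the 38 were lower, and none passed after adjustment. Against chow, the smallest p values in HFD+PE livers were those of Ube2l6, the conjugating enzyme for ISG15 (log2 change -0.51, SE 0.135, adjusted p = 0.159), Znfx1 (-0.50, adjusted p = 0.223), Ifi44 (-0.46, adjusted p = 0.224) and Ifi27l2b (-0.85, adjusted p = 0.236). The smallest p of the list was that of Ifi44l between HFD+PE and HFD livers (-0.52, adjusted p = 0.993) and that of Parp9 between HFD and chow livers (-0.53, adjusted p = 0.613). The mean of these 38 genes followed the members' mean between animals (r = 0.97, rho = 0.93, and r = 0.96 without chow 1 and HFD 4). Single genes of the list differed, from r = 0.87 for Herc6 to -0.28 for Ifit1. An r over 0.5 was found in 24 of the 38, against 8.29% of the genes outside the members. Between HFD+PE and chow livers, 5 of the 38 were higher, among them Ifit2 (0.29) and Ifit1 (0.19).

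Of 21 interferon gamma responsive and antigen processing genes, 16, 16 and 18 were lower in the same 3 comparisons, with medians of -0.08, -0.10 and -0.16, and 2, 2 and 7 at an unadjusted p under 0.05. The immunoproteasome subunit gene Psmb9 differed by -0.65 (adjusted p = 0.237) and the GTPase gene Igtp by -0.59 between HFD+PE and chow livers. Cd74, the invariant chain of MHC class II, was lower by 0.48 in HFD than in chow livers (log2 change -0.48, adjusted p = 0.594).

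Of 11 receptor and JAK-STAT genes, 4, 6 and 5 were lower, near the shares of all genes, with medians of 0.01, -0.02 and 0.04. Against chow, the kinase gene Jak1 differed by 0.21 in HFD+PE livers (adjusted p = 0.404) and Ifngr1, a chain of the interferon gamma receptor, by -0.24. Stat2 differed by -0.26 between HFD+PE and HFD livers (adjusted p = 0.993). Of 8 interferon genes listed, 3 were measured, at low signals (4.1 to 4.6 for Ifnb1, 2.7 to 3.2 for Ifng and 3.2 to 3.7 for Ifnk, where the lowest value on any array was 2.2). They differed by -0.11 to 0.06 in the 3 comparisons, and at such signals a difference may not be detectable. Of 10 sensors and adaptors, 7, 5 and 6 were lower, and the RNA sensor gene Dhx58 differed by -0.26 (adjusted p = 0.331) and Tlr7 by -0.45 (adjusted p = 0.371) between HFD+PE and chow livers. Of 9 negative regulators, 3, 6 and 5 were lower, and Usp18, which removes ISG15 from proteins, differed by -0.50 (adjusted p = 0.433) between HFD+PE and chow livers. No gene of these lists passed after adjustment. Between animals within groups, the list means nevertheless correlated with the members' mean, at r = 0.66 for the receptor and JAK-STAT genes (rho = 0.55, and r = 0.69 without chow 1 and HFD 4), 0.58 for the sensors and adaptors (rho = 0.55, and 0.38) and 0.76 for the negative regulators (rho = 0.75, and 0.75). Single genes differed widely in r. Receptor and JAK-STAT genes ran from 0.88 for Irf9 to -0.25 for Ifnlr1, with Stat2 at -0.20. Sensors and adaptors ran from 0.65 for Tlr7 to -0.06 for Irf3. Negative regulators ran from 0.73 for Usp18 to -0.39 for Socs1.

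Markers of Kupffer cells and macrophages averaged lower beside the members, and none passed after adjustment. Of 11 measured, 9, 11 and 10 were lower in HFD+PE against HFD, HFD against chow and HFD+PE against chow, with medians of -0.32, -0.53 and -0.82, and 0, 6 and 9 at an unadjusted p under 0.05. Clec4f, a Kupffer cell lectin gene, differed by -0.97 (adjusted p = 0.139) and C1qa by -0.82 (adjusted p = 0.134) between HFD+PE and chow livers. The mean of the 11 markers, as the difference from the chow mean, was -1.21 to -0.30 in HFD+PE livers, -0.91 to 0.02 in HFD livers and -0.24 to 0.63 in chow livers. Across all animals, the level of Clec4f ran from 9.5 to 11.7 and that of Adgre1, a macrophage marker, from 4.4 to 6.6.

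Within groups, this marker mean correlated with the members' mean (r = 0.61, rho = 0.56 over 15 animals, and r = 0.57 without chow 1 and HFD 4). Marker means of other cells correlated positively too. For stellate cells r was 0.51 (0.12 without chow 1 and HFD 4) and for endothelial cells 0.44 (0.52). For neutrophils it was 0.41 (0.27) and for T and NK cells 0.40 (0.73). Hepatocyte markers were at -0.10 (-0.14). The part of any cell type in the differences of the interferon response genes was not tested. In whole liver, fewer cells of a type and less RNA per cell cannot be told apart. The means of 6 hepatocyte markers were 0.04 to 0.25 in HFD+PE, -0.05 to 0.12 in HFD and -0.21 to 0.09 in chow livers. Against chow, that mean rested on the cytochrome P450 gene Cyp2e1 (log2 change 0.63 in HFD+PE livers, adjusted p = 0.108) and Apoa1 (0.16), while Alb, Ttr, Serpina1 and Hnf4a differed by -0.03 to 0.05 and the list's median was 0.02. Of 10 T and NK cell markers, 4, 7 and 8 were lower in the 3 comparisons, with medians of 0.01, -0.06 and -0.05.

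**Figure D5:**
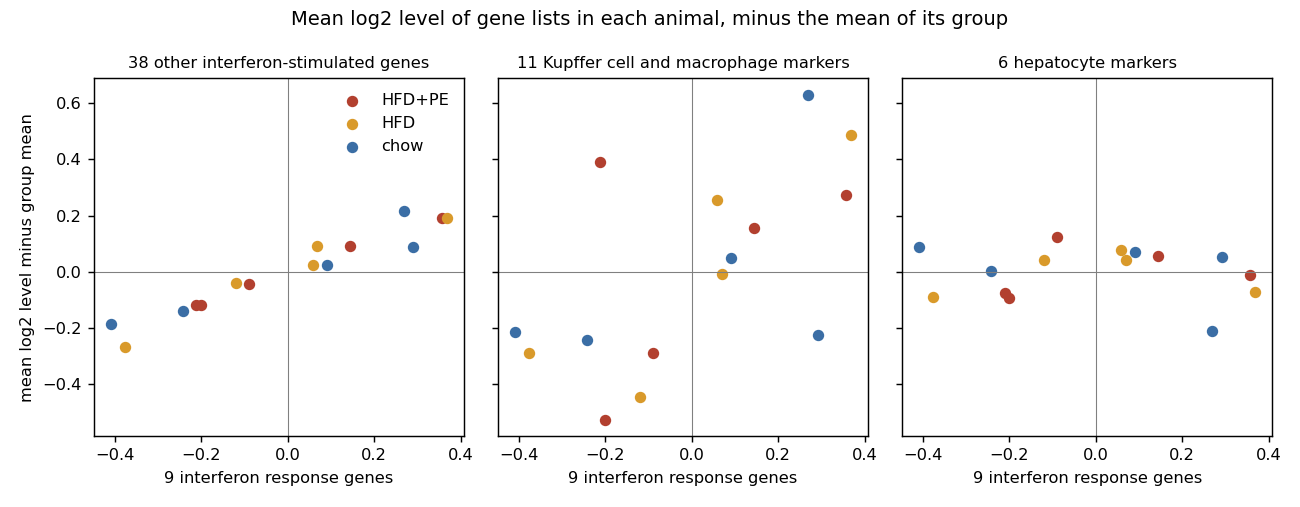
Members' mean of each animal against the mean of a gene list, in 3 panels, after subtraction of the group means. The lists are the 38 other interferon-stimulated antiviral genes, the 11 Kupffer cell and macrophage markers and the 6 hepatocyte markers. Pearson's r is 0.97, 0.61 and -0.1 in that order.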

How the data were processed

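Per the submitters' processing notes, the authors processed the arrays with Affymetrix Expression Console and RMA, which corrects background, quantile-normalizes and summarizes probes (for neither is a version given in the sources used here). Log2 signals were deposited, from 2.2 to 15. All 559782 were whole multiples of 0.1, so the rounding and the number of animals limit the precision; arrays have no read depth.

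Apart from 57 control probe sets, which were not tested, 20826 probe sets named 1 gene symbol in the platform annotation, 436 several and 9780 none. Those with 1 symbol gave 14217 genes, each represented by its brightest probe set. Groups were compared with limma 3.58.1 (R 4.3.3, statmod 1.5.0), 1 mean per group over 15 animals, two-sided, with Benjamini-Hochberg adjustment over all genes at 0.05. Averaging the 3 array pairs is an inference from the values, known from an earlier look at these data; fits of all 18 arrays are alternatives. Covariation used limma on each member with group in the model, and 100000 permutations of group-centred values for pairs. The code was tested on simulated data.

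Members and lists were chosen with earlier results of these data known. The rule named the 9 members, up to 4 genes per list and comparison with the smallest unadjusted p, and the 10 genes most like the members' mean. Motif matches used RefSeq promoters of GRCr8. Alternatives covered the array count, blocks, control sets, probe set choice, filter, centring and leaving out each animal. The labels call the arrays biological replicates without naming the animals, so p-values measure the spread between these samples.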

Additional observations from a re-analysis of the deposited data

Results flagged for a closer look

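Of 33 groups of 5 animals tested (the 9 members, the second Mx2 probe set and the members' mean, in each diet group), 3 held an animal far from the rest of its group, where chance gives about 1 in 20. The members vary together and share animals, so the 33 are not independent and the count shows no excess over that rate. In HFD livers, HFD 4 was at 6 for Oas1a, against 7.2 to 7.65 in the other HFD animals. The same animal was at 6.4 for Mx2, against 7.2 to 7.5. The second, dim Mx2 probe set was at 4.6 in HFD+PE 5, against 3.2 to 3.3 in the other HFD+PE animals and 3.0 to 3.5 in HFD and chow livers.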

How the results depend on the processing

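Over 26 alternatives, 12 of 666 member values had the opposite sign, all for Irf1 or Ifit3 in HFD+PE against HFD or Isg15 in HFD against chow. Genes past the adjusted p of 0.05, 0 in each comparison, moved as follows; the cause was not tested. For HFD+PE against chow there were 145 with 18 arrays as separate animals, 29 with the animal as a random block, 119 with a replicate block and 3 on the lower hybridization set. For any difference they were 19 with 18 arrays, 29 with the replicate block and 3 on the lower set, and for HFD against chow 1 on the lower set. Leaving out 1 animal gave 0 to 2 genes for HFD+PE against HFD and 0 to 26 for HFD+PE against chow (2 and 26 without HFD+PE 3-4). It gave 0 to 1 for HFD against chow (1 without HFD 1-2) and 0 to 12 for any difference (12 without HFD+PE 3-4).

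Covariation calls among 72 ordered member pairs, 0 in the 15 animals, were 7 with 18 arrays, 6 with the random block, 10 with the replicate block, 1 on the lower set, 1 with HFD+PE 3 and 4 as separate animals and 0 to 2 without 1 animal. The replicate numbers did not pair the samples: 4 of 18 same-number correlations were over 0.1 (-0.31 to 0.19), and 5 of 18 arrays were closest to their own number. With the replicate block, the adjusted p by limma in HFD+PE against chow was 0.0469 for Oas1a, 0.0343 for Oasl and 0.0427 for Bst2. That fit counts the 18 arrays as separate animals, the averaged pairs included. Restricting to genes above the median level dropped Oasl, Ifit3 and Mx1 and left 6 members. Of these, 5 were lower in HFD+PE than in chow livers at an unadjusted p under 0.05 by limma.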

Other observations

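Among markers of other cells, the cytotoxic granule gene Prf1, which encodes perforin, was lower by 0.75 in HFD+PE than in chow livers (log2 change -0.75, SE 0.189, adjusted p = 0.142) and by 0.43 than in HFD livers (log2 change -0.43, adjusted p = 0.993). Prf1 was singled out for its small p: of the 10 T and NK cell markers, 6 were higher in HFD+PE than in HFD livers, with a median of 0.01. All 7 stellate cell markers were lower in HFD+PE than in chow livers, with a median of -0.35, and 3 of them at an unadjusted p under 0.05. The mean hybridization control level correlated with the members' mean within groups at r = -0.21, the difference between 3′ and 5′ actin probe sets at 0.05 and that for GAPDH at 0.02. On every array the 3′ signal was well above the 5′ signal, by 3.1 to 4.3 log2 for actin and 2.1 to 3.4 for GAPDH. By animal, the GAPDH difference was 2.4 to 3.4 in HFD+PE, 2.1 to 3.2 in HFD and 2.15 to 3.2 in chow livers. For actin it was 3.6 to 4.05, 3.1 to 4.0 and 3.4 to 4.1, so the groups overlapped. Correlations within groups cannot show whether such technical values bear on differences between groups, which was not tested.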
